A study of Mus musculus with 2 samples.

Results

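TAM_H2Ab1 is the name that the study's authors gave to a population of tumour-associated macrophages (TAMs) high in MHC class II transcripts. Its members were the cells that carry this name in the deposited cell annotation. They numbered 205 of the 7815 annotated cells. Of these, 169 were among the 2975 cells of the NTT library and 36 were among the 4840 cells of the RTT library.

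The study asked how melanoma cells that have become resistant to targeted therapy shape the immune cells of their tumours. Both lines derive from YUMM3.3, a mouse melanoma line with mutant Braf and loss of Cdkn2a. NTT denotes the line naive to targeted therapy, and RTT denotes its derivative resistant to targeted therapy, which was kept in culture under the BRAF inhibitor dabrafenib. Each line was injected into C57BL6 mice, and according to the labels tumours were taken on day 12. The labels name no age and no treatment of the mice. From 1 tumour per line, live CD45+ cells (CD45 marks haematopoietic cells) were sorted and run as 1 droplet library by the 10x Genomics 3′ method. The tumour, the library and the line therefore cannot be told apart, and no test between NTT and RTT was possible. Cells of 1 tumour are not replicates, so the intervals given here are 95% intervals that cover counting error only, and a gene was counted as higher or lower when its ratio reached 2-fold.

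MHC class II molecules present peptides from engulfed proteins to CD4+ T cells. Their alpha and beta chains (H2-Aa, H2-Ab1, H2-Eb1) assemble with the invariant chain Cd74 and are loaded with peptide with the help of H2-DM. Dendritic cells carry class II constitutively, whereas macrophages and monocytes carry it to a variable degree, and interferon gamma raises it through the transactivator Ciita. Macrophages in tumours arise largely from blood monocytes that lose the genes of circulating monocytes as they mature.

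In NTT, TAM_H2Ab1 made up 5.68% of all cells (interval 4.88 to 6.57%) and 29.0% of the 582 macrophages. In RTT the same name covered 0.744% of all cells (0.521 to 1.03%) and 0.898% of the 4009 macrophages. The NTT cells held a median of 12697 UMIs (unique molecular identifiers, each a captured transcript) and 3341 genes, against a median of 5398 UMIs over the NTT library. The RTT cells held a median of 7962.5 UMIs. Summed over cells, the population held 2205075 UMIs in NTT and 360354 in RTT. The libraries shared 7 cell barcodes, of which 0 belonged to TAM_H2Ab1.

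The name was first checked against 5 markers given for the population. In NTT, TAM_H2Ab1 had the highest Vcam1 and Dnase1l3 levels of the 12 populations with at least 15 cells and the second-highest Fcrl5 and Cd300e levels, behind TAM_cycling in both cases. Vcam1 encodes an adhesion molecule that binds integrins on leukocytes, Dnase1l3 a secreted nuclease that degrades extracellular chromatin, Fcrl5 an Fc receptor-like protein and Cd300e an activating myeloid receptor. H2-Ab1 itself was high but not particular to these cells: it ranked 4 of 12 in NTT, below cDC1, cDC2 and Monocyte_1. These genes took part in defining the population, so their levels are a description.

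H2-Ab1 (GRCm38 chr17:34257689-34269419, plus strand) stood at 7958 CPM (a gene's UMIs divided by all UMIs of the population and scaled to 1e6) in NTT TAM_H2Ab1 (7841 to 8077) and at 8045 CPM in RTT TAM_H2Ab1 (7755 to 8343). Among the other NTT macrophages it stood at 6143 CPM in Macro, 4580 CPM in TAM_cycling, 2654 CPM in TAM_Spp1 and 2383 CPM in the 17 cells of TAM_C1q. The name "high" thus held within NTT macrophages, with intervals that did not overlap those of the neighbours in the order. Monocyte_1 was higher at 11334 CPM, and cDC2 was higher again at 12437 CPM. In RTT, H2-Ab1 reached 8724 CPM (8637 to 8812) in TAM_Spp1 and 10398 CPM (9919 to 10893) in the 26 cells of Macro. Both stood above the RTT TAM_H2Ab1 cells. TAM_C1q, the most abundant RTT macrophage, held 1155 CPM. NK_cells held 215 CPM in NTT, which gives the level in cells that should lack the gene.

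The other 4 markers separated the population more sharply from most NTT cells. Fcrl5 (chr3:87435773-87500678, plus strand) stood at 179 CPM (162 to 198) in TAM_H2Ab1 and at 301 CPM (277 to 327) in TAM_cycling, while Monocyte_1 had 3.14 CPM and cDC2 had 0.586 CPM. Vcam1 (chr3:116109949-116129688, minus strand) stood at 294 CPM (272 to 318), against 150 CPM (133 to 168) in TAM_cycling and 13.7 CPM in Monocyte_1. Dnase1l3 (chr14:7964533-7994573, minus strand) stood at 302 CPM (280 to 326), but cDC1 at 203 CPM, TAM_cycling at 168 CPM and DC3 at 151 CPM also carried it, and the intervals of these 3 overlapped from each neighbour to the next. Cd300e (chr11:115051917-115062177, minus strand) stood at 254 CPM (234 to 276), below the 364 CPM (337 to 392) of TAM_cycling and above the 19.8 CPM of Monocyte_1. TAM_cycling thus shared all 4 genes, whereas TAM_Spp1 and Macro held at most 17.3 CPM of any of them.

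**Figure D1:**
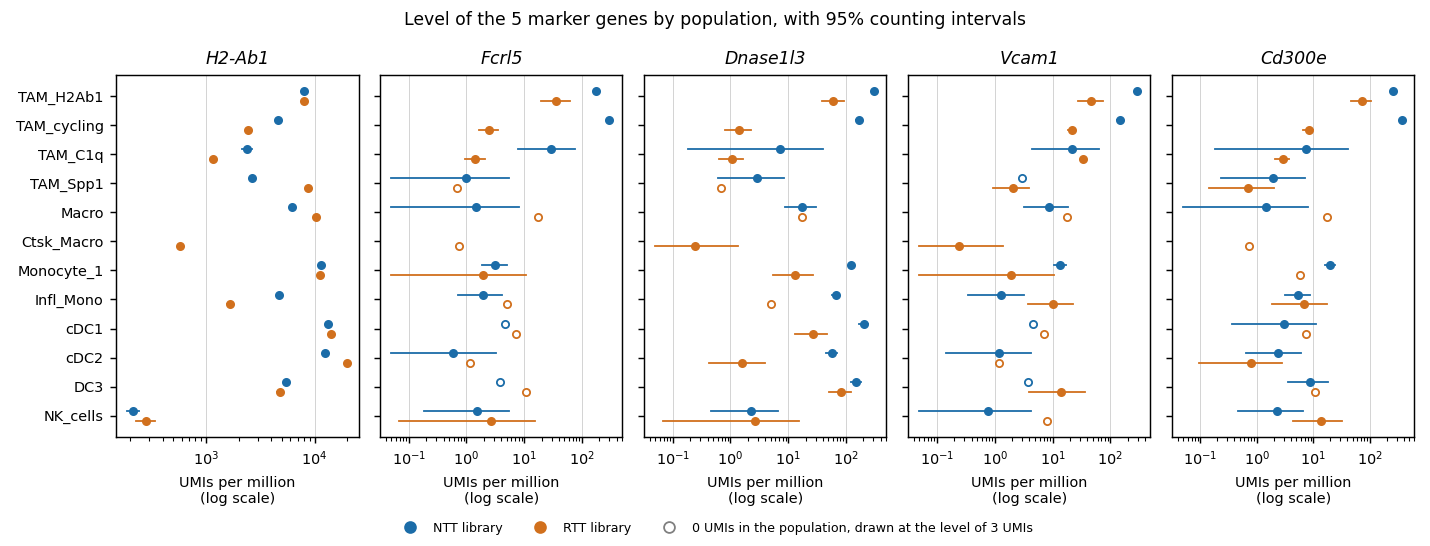
Levels of the 5 marker genes in CPM on log axes, by population (vertical axis) and library (blue NTT, orange RTT), with 95% counting intervals as bars and open circles where a population held 0 UMIs. H2-Ab1 is spread over many populations, while Fcrl5, Vcam1 and Cd300e are highest in the NTT cells of TAM_H2Ab1 and TAM_cycling, and in RTT TAM_H2Ab1 they lie below the NTT level.

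RefSeq promoter windows (GRCm38.p6, the 250 bases before the annotated start) are shown for 2 class II genes, since class II gives the population its name. They are also shown for 2 interferon-stimulated genes that stood higher in these cells than in the other NTT macrophages pooled. In the class II windows the capitals mark the letters ATTGG on either strand, the core of the Y box found in class II promoters. In the interferon-stimulated windows they mark GAAA followed by any 2 bases and a second GAAA, on either strand, a core of the interferon-stimulated response element. The H2-Aa window lies at chr17:34287824-34288073 on the minus strand and H2-Eb1 at chr17:34305617-34305866 on the plus strand. The Isg15 window lies at chr4:156200819-156201068 on the minus strand and Ifit3 at chr19:34583279-34583528 on the plus strand.
H2-Aa: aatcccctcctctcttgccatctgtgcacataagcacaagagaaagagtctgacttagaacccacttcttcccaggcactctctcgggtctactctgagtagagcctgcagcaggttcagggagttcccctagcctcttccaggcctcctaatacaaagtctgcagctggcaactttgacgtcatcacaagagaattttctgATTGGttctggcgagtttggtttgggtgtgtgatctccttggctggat
H2-Eb1: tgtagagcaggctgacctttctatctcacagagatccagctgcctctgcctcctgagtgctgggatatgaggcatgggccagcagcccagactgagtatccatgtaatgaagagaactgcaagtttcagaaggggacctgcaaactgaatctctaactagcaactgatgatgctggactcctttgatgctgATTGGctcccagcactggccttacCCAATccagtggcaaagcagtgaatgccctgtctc
Isg15: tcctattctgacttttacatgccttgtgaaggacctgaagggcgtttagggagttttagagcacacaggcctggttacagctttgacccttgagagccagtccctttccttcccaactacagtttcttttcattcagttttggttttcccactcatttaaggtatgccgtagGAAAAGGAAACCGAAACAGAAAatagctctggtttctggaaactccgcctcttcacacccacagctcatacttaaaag
Ifit3: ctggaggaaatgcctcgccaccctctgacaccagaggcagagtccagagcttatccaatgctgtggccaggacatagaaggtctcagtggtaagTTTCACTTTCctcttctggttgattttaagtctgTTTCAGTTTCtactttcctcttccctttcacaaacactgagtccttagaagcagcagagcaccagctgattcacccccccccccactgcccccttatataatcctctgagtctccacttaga
ATTGG occurred in 33.8% of all 32851 windows of this length and in 8 of the 8 windows found for the 9 class II chain and chaperone genes searched; H2-Ab1 had no window in the table. The response element core occurred in 2.98% of all windows and in 7 of 15 windows of the interferon-stimulated list; its 3 matches in Isg15 overlap one another. A match describes letters only, and no binding was measured.

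Against the other NTT macrophages (TAM_C1q, TAM_Spp1, TAM_cycling and Macro, 413 cells), TAM_H2Ab1 cells carried more of the transcripts of the interferon response and fewer of those of monocytes and of resident-like macrophages. Of 6360 genes compared (at least 100 UMIs in both sides together), 92 were 2-fold higher, which is 1.45%, and 543 were 2-fold lower, which is 8.54%. The median log2 ratio over all of these genes was -0.07. TAM_cycling held 1898219 of the 3758112 UMIs of this reference and resembled TAM_H2Ab1 closely, so that the comparison was repeated, after the data had been seen, with TAM_cycling left out and with TAM_cycling alone. Without it, the 310 remaining cells gave 395 genes 2-fold higher of 5210 compared (7.58%) and 652 lower (12.5%).

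Genes of the class II chains and of their loading stood higher than in the other macrophages, and the regulator Ciita did not. Without TAM_cycling, the class II presentation list had a median log2 ratio of 0.86 over 11 of its 15 genes that had enough UMIs, with 4 genes 2-fold higher and 0 lower, beside a median of 0.01 over all genes. H2-Ab1 was 1.02 higher on the log2 scale (0.98 to 1.06), H2-Eb1 1.05 higher and H2-Aa 0.62 higher. Cd74, the invariant chain, was 0.53 higher. H2-DMb1, a chain of the peptide exchanger (its reads may be shared with the close copy H2-DMb2), was 1.21 higher, and Ctss, the cathepsin that trims the invariant chain, was 1.12 higher. Ciita, the master regulator of these genes, had a log2 ratio of -0.04 with an interval from -0.41 to 0.33. With TAM_cycling in the reference, 0 of the 11 genes reached 2-fold in either direction, and H2-Ab1 was 0.90 higher.

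Complement C1q was among the most abundant products of the population. C1qa, C1qb and C1qc encode the chains of the molecule that starts the classical complement pathway. C1qa stood at 9879 CPM in NTT TAM_H2Ab1, 8495 CPM in TAM_cycling, 7790 CPM in TAM_C1q, 3654 CPM in Macro and 1176 CPM in TAM_Spp1. On the log2 scale C1qa was 1.93 above the macrophages without TAM_cycling. C3, the central complement component, went the other way with a log2 ratio of -1.81. Over the complement list the median was 1.01 without TAM_cycling (5 of 10 genes 2-fold higher, 2 lower) and 0.30 against all other macrophages (1 of 10 higher, 1 lower). Of all genes, 7.58% were higher and 12.5% lower in the first comparison, and 1.45% and 8.54% in the second.

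Genes known from non-classical, patrolling monocytes were divided: some receptors stood high, and other defining genes were nearly undetected. Against all other macrophages the non-classical monocyte list had a median log2 ratio of 0.47, with 0 of 11 genes 2-fold higher and 1 lower. Without TAM_cycling, the non-classical monocyte list had the highest median of the 21 gene lists, 1.92, with 8 of 10 genes 2-fold higher and 1 lower. In that comparison 7.58% of all genes were higher. Fcgr4, an activating receptor for IgG, stood at 2618 CPM and was 2.54 higher on the log2 scale. Pou2f2, a transcription factor of these monocytes and of B cells, was 2.48 higher. The lectin genes Clec4a1 and Clec4a3 were 1.65 and 1.69 higher. Itgal, an integrin chain, had a log2 ratio of -1.48. Of the 14 list genes in the matrix, 4 had too few UMIs for that comparison. Ace, the angiotensin-converting enzyme, and Adgre4, an adhesion receptor, each had 1 UMI in the 169 cells. Nr4a1, a nuclear receptor that non-classical monocytes depend on, had 7 UMIs. Against the NTT monocytes, 5 of the 14 genes were 2-fold higher and 4 lower. Cx3cr1, the receptor usually used to mark this state, was not analysed here.

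Monocyte and resident-like genes were low against the other NTT macrophages pooled. All 10 measured genes of the classical monocyte list were 2-fold lower than in the macrophages without TAM_cycling, with a median log2 ratio of -5.20. All 10 were also lower against all other macrophages, with a median of -4.23. Of all genes, 12.5% were lower in the first comparison and 8.54% in the second. Ccr2, the chemokine receptor through which monocytes enter tissue, stood at 73.9 CPM in TAM_H2Ab1 and at 1666 CPM in the macrophages without TAM_cycling. Plac8 stood at 126 CPM against 2606 CPM. Vcan, a proteoglycan gene of classical monocytes, had 3 UMIs in the 169 cells, a log2 ratio of -8.52 (-10.80 to -6.97). Of the resident-like list, 9 of 10 genes were 2-fold lower and 0 higher, against 8 of 10 lower with TAM_cycling in the reference. Mrc1, the mannose receptor, had a log2 ratio of -2.33. Cd163, the scavenger receptor for haemoglobin, stood at 2.72 CPM against 372 CPM. Lyz2, the lysozyme gene used to mark myeloid cells, was lower by 2.94 on the log2 scale, and Cd14, the co-receptor for lipopolysaccharide, was lower by 5.03. Against TAM_cycling alone, the resident-like list had a median log2 ratio of 0.64, with 1 of 6 genes 2-fold higher and 0 lower. Its median was 1.53 against the monocytes, with 5 of 7 genes higher and 1 lower. It was 3.65 against the dendritic cells, with 4 of 6 higher and 2 lower.

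A list of 20 genes that the study's authors drew for TAM_H2Ab1 had a median log2 ratio of 1.46 without TAM_cycling. Of its genes, 15 were 2-fold higher and 0 lower, where 7.58% of all genes were higher. That list was drawn on a map that included these libraries and is not independent of them. Within it, Cd72, an inhibitory receptor best known from B cells, stood at 2181 CPM and was 4.09 higher on the log2 scale. Slamf9, a member of the SLAM receptor family, stood at 1184 CPM and was 4.12 higher. Ms4a7, a membrane protein of mature macrophages, stood at 2872 CPM and was 2.03 higher. With TAM_cycling in the reference, 3 of the 20 reached 2-fold.

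**Figure D2:**
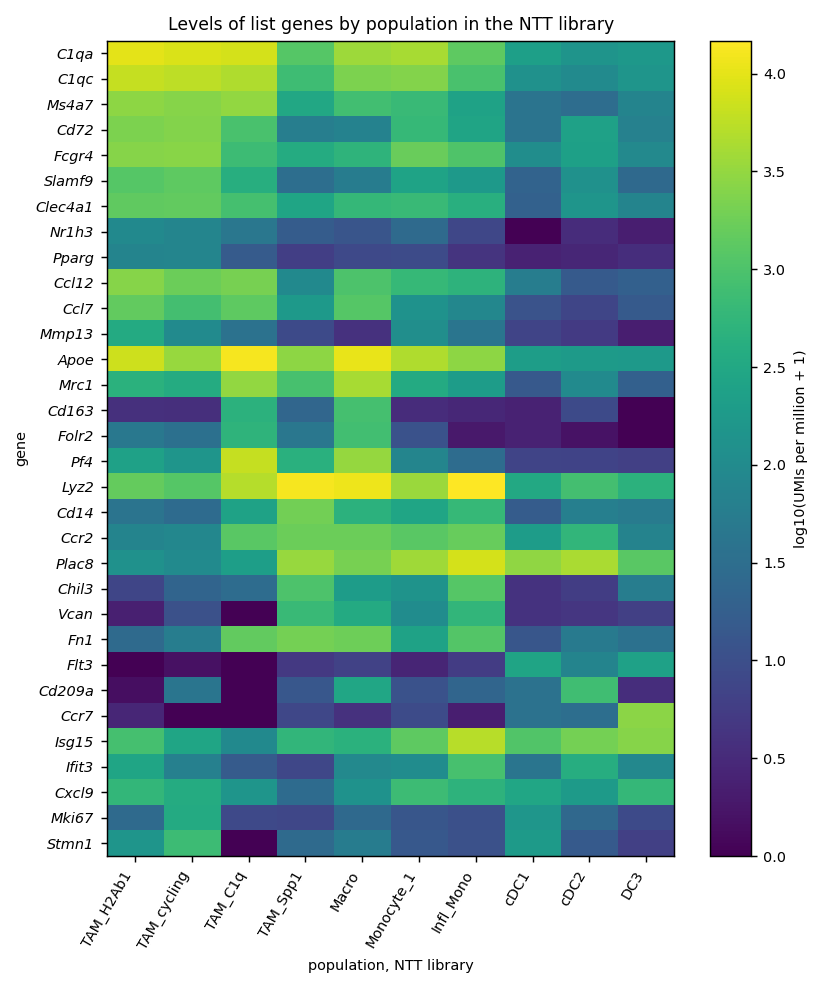
Levels of selected list genes (rows) in each NTT population (columns), coloured by log10(CPM + 1). The columns of TAM_H2Ab1 and TAM_cycling look alike over C1qa, Cd72, Fcgr4 and Ccr2, whereas Mki67 and Stmn1 are high in TAM_cycling and Isg15 and Ifit3 are higher in TAM_H2Ab1.

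Set against TAM_cycling alone (103 cells), the cell cycle list had the lowest and the type I interferon list the highest median of the 21 gene lists. Of 5194 genes, 52 were 2-fold higher in TAM_H2Ab1 (1%) and 256 were 2-fold lower (4.93%). All 11 measured cell cycle genes were 2-fold lower, with a median log2 ratio of -3.51. Mki67, the proliferation antigen Ki-67, stood at 26.8 CPM in TAM_H2Ab1 and 357 CPM in TAM_cycling. Top2a, which untangles replicated DNA, had a log2 ratio of -5.54. The classical monocyte list (-0.28), the non-classical list (-0.05) and the study's own list (0.24) had medians near the -0.06 of all genes. The cell cycle genes are those that the name TAM_cycling refers to, so their difference is a description.

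Class II and interferon genes stood higher in TAM_H2Ab1 than in TAM_cycling. H2-Ab1 was 0.80 higher on the log2 scale (0.76 to 0.83) and H2-Eb1 0.84 higher, although 0 of the 11 class II genes reached 2-fold. Of the type I interferon-stimulated list, 11 of 17 genes were 2-fold higher and 0 lower, with a median of 1.10, where 1% of all genes were higher. Isg15, a ubiquitin-like protein induced by interferon, stood at 863 CPM in TAM_H2Ab1 and 281 CPM in TAM_cycling. Ifit3, which binds viral RNA with its IFIT partners, stood at 278 CPM against 64.3 CPM (its reads may be shared with the close copy Ifit3b). Ifit1 was 2.26 higher on the log2 scale. Fcrl5 and Cd300e were lower in TAM_H2Ab1, by -0.75 and -0.52 on the log2 scale.

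Interferon-stimulated genes led the ranking against all other NTT macrophages as well. The 10 highest ratios, by the fixed rule, were those of Ifit3b, Mmp13, Ifi44, Ifit2, Spic, Ifit3, Ifit1, Gbp2b, Il18bp and Iigp1. Ifit2 was 2.60 higher on the log2 scale (2.32 to 2.90), and Iigp1, an interferon-inducible GTPase, was 1.92 higher. Il18bp, the soluble inhibitor of interleukin-18, was 1.94 higher. Spic, a transcription factor of iron-recycling red pulp macrophages, was 2.56 higher at a level of 45.4 CPM. The type I list had a median of 1.06 (11 of 19 genes 2-fold higher, 1 lower), and the interferon gamma list had a median of 0.89 (7 of 18 higher, 0 lower). Over all genes compared, 1.45% were higher and 8.54% lower. The level was not the highest in the library: Isg15 stood at 5246 CPM in Infl_Mono, the inflammatory monocytes, and at 1360 CPM in Monocyte_1. Among the 10 lowest ratios were Ccl24, an eosinophil chemokine, with 1 UMI in TAM_H2Ab1 and a log2 ratio of -8.41 (-13.72 to -5.93), and Lyve1, the hyaluronan receptor, also with 1 UMI and a ratio of -6.52 (-11.83 to -4.02). F13a1, a clotting factor subunit of resident-like macrophages, had a ratio of -6.36.

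Against the NTT monocytes pooled (Monocyte_1, Infl_Mono and Monocyte_3, 1615 cells), TAM_H2Ab1 held more C1q and more chemokine ligands of Ccr2. It held less of the monocyte and interferon transcripts. Its class II level was similar to that of the pool, which joins unlike populations. H2-Ab1 stood at 4742 CPM in Infl_Mono, 7958 CPM in TAM_H2Ab1 and 11334 CPM in Monocyte_1. Of 7266 genes, 511 were 2-fold higher (7.03%) and 669 were 2-fold lower (9.21%). All 10 classical monocyte genes were lower, with a median log2 ratio of -5.05. Plac8 stood at 5337 CPM in the monocytes, and Chil3, a chitinase-like protein, had a log2 ratio of -6.37. C1qa was 1.63 higher on the log2 scale and Ms4a7 2.51 higher. The class II list had a median of -0.11 (1 of 14 genes 2-fold higher, 2 lower), and H2-Ab1 had a log2 ratio of -0.16. The interferon lists went the other way from the macrophage comparison: 13 of 19 type I genes and 8 of 18 interferon gamma genes were 2-fold lower and 0 were higher.

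The largest ratios over monocytes belonged to Asb2, Fcrl5, Clec4b1, Vcam1 and Htra1. Asb2, a subunit of a ubiquitin ligase, stood at 62.6 CPM against 0.698 CPM. Fcrl5 was 6.07 higher on the log2 scale (5.46 to 6.74), and Vcam1 was 5.02 higher (4.68 to 5.38). Pparg and Nr1h3, nuclear receptors for lipid ligands, were 3.51 and 2.30 higher.

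Monocyte_1 alone (984 cells) was the monocyte population most like TAM_H2Ab1. Of 6526 genes, 347 were 2-fold higher in TAM_H2Ab1 (5.32%) and 433 were 2-fold lower (6.63%). H2-Ab1 and H2-Aa were lower by 0.51 and 0.67 on the log2 scale, and Ciita was lower by 1.59, from 185 CPM to 61.7 CPM. Cd72 was 1.82 higher and Fcgr4 0.65 higher. Ccr2 had a log2 ratio of -4.08. The type I interferon list had a median of -0.36 over its 19 genes here, with 3 genes 2-fold higher and 2 lower. Among those 3, Ifit3 was 1.43 higher and Rsad2, the antiviral enzyme viperin, 1.57 higher, while Isg15 had a log2 ratio of -0.66.

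Against the NTT dendritic cells (cDC1, cDC2 and DC3, 492 cells), the population lacked the genes that define that lineage. Of 5852 genes, 621 were 2-fold higher (10.6%) and 690 were 2-fold lower (11.8%). Of the conventional dendritic cell list, 12 of 15 genes were 2-fold lower and 0 higher, with a median log2 ratio of -6.49. Flt3, the receptor for the growth factor of dendritic cells, had 0 UMIs in the 169 TAM_H2Ab1 cells and 158 CPM in the dendritic cells, which makes it at least 116-fold lower with the 0 set to a floor of 3 UMIs. Ccr7, the receptor that guides dendritic cells to lymph nodes, had 4 UMIs and a log2 ratio of -8.61. Xcr1, the chemokine receptor of cDC1, was an exception against these pooled cells, of which 78 were cDC1. It stood at 27.7 CPM in TAM_H2Ab1 and 32.1 CPM in TAM_cycling. Its log2 ratio to the pooled dendritic cells had an interval from -0.78 to 0.17. Batf3, a transcription factor of cDC1, stood at 96.6 CPM against 157 CPM in the same pool. Neither ratio is a comparison with cDC1 alone.

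The class II machinery of TAM_H2Ab1 also differed in part from that of dendritic cells. H2-Ab1 was lower by 0.45 on the log2 scale and H2-Aa by 0.88. H2-Oa, which restrains peptide loading and is a product of B cells and dendritic cells, stood at 4.99 CPM against 244 CPM, and Ciita at 61.7 CPM against 274 CPM. Ctss was 1.55 higher. Of the costimulation and checkpoint list, 7 of 12 genes were 2-fold lower and 1 higher, where 11.8% of all genes were lower. Cd86, a ligand of CD28, stood at 93.4 CPM against 341 CPM. Macrophage genes were higher, with 11 of 13 macrophage identity genes and 8 of 10 complement genes 2-fold higher, against 10.6% of all genes. Fcrl5, with 1 UMI in the dendritic cells, was 9.14 higher on the log2 scale (6.65 to 14.45).

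A few genes were highest of all NTT populations of at least 50 cells in TAM_H2Ab1. Mmp13, a collagenase, had the largest of the ratios kept: 357 CPM against 112 CPM in Monocyte_1, a 3.19-fold difference, with 74 of 169 cells holding a UMI. Dppa3, a germ cell and early embryo gene, stood at 40.8 CPM, 2.87-fold above TAM_cycling, in 36 cells. Vcam1 was 1.97-fold above TAM_cycling. The 7 others were Gdf3, Tmem171, Ccl12, Renbp, Apobec1, Lgals3bp and Zmynd15, at ratios between 1.49 and 1.74.

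Monocyte-attracting chemokines were plentiful. Ccl12, a ligand of Ccr2, stood at 2599 CPM in TAM_H2Ab1, 1697 CPM in TAM_cycling, 608 CPM in Monocyte_1 and 93.3 CPM in TAM_Spp1. Ccl7 and Ccl2, also ligands of Ccr2, stood at 1478 and 1299 CPM and were 3.68 and 2.50 higher than in the monocytes on the log2 scale. Cxcl9, which draws T cells through Cxcr3, stood at 581 CPM, 2.95 above the macrophages without TAM_cycling on the log2 scale and at a log2 ratio of -0.14 to the monocytes. In NTT TAM_H2Ab1, 5 of the 169 cells held 52.5% of the Cxcl9 UMIs. Il1b had a log2 ratio of -1.17 to the monocytes. Cxcl13 was left unnamed in the rankings because 1 cell held all 177 of its NTT UMIs.

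The NTT cells were uniform in C1q and uneven in class II and interferon transcripts. With each cell thinned to 2000 UMIs, the 3 C1q genes together gave a median of 52 UMIs per cell with quartiles of 45 and 61. H2-Aa, H2-Ab1, H2-Eb1 and Cd74 together gave a median of 55 with quartiles of 21 and 77 and a range from 0 to 153. TAM_cycling had a median of 19 class II UMIs, Infl_Mono a median of 6 and Monocyte_1 a median of 81. The type I interferon list gave a median of 10 UMIs (quartiles 5 and 18). The medians were 4.5 in TAM_C1q, 5 in TAM_cycling, 8 in TAM_Spp1, 12 in Macro and 46 in Infl_Mono. The classical monocyte list was at 0 UMIs in 103 of 169 cells (60.9%).

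**Figure D3:**
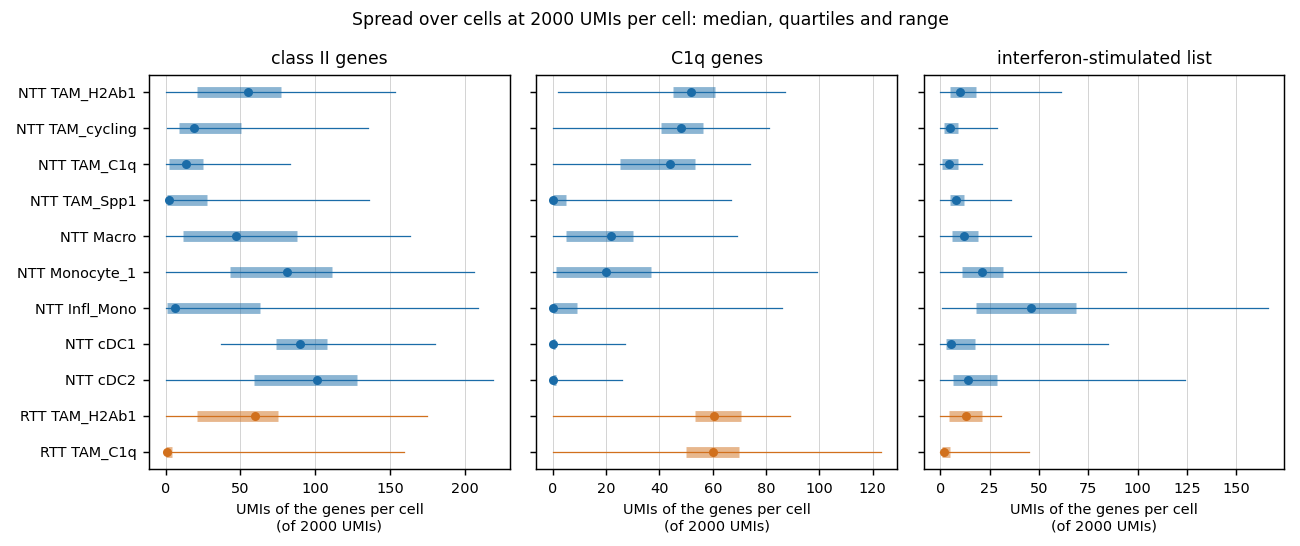
UMIs per cell of the 4 class II genes, the 3 C1q genes and the type I interferon-stimulated list, in cells thinned to 2000 UMIs (points are medians, thick bars quartiles, thin lines the range), for NTT (blue) and RTT (orange) populations. In NTT TAM_H2Ab1 the C1q quartiles are 45 and 61, whereas the class II quartiles are 21 and 77.

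At this depth, 95.3% of the 169 NTT cells held an H2-Ab1 UMI and 31.1% of NK_cells did, at median depths of 12697 and 5358.5 UMIs before thinning. Fcrl5 was seen in 25.4% (57.4% without thinning), Dnase1l3 in 34.3% (75.1%), Vcam1 in 28.4% (59.8%) and Cd300e in 37.9% (72.2%), against 0, 0, 0 and 0.610% of the 164 NK_cells. At least 1 of these 4 genes was seen in 137 of 169 cells (81.1%), in 83 of 103 TAM_cycling cells (80.6%) and in 151 of 941 Monocyte_1 cells. At least 2 were seen in 65 of the 169 cells (38.5%). In RTT, 12 of 34 cells (35.3%) held at least 1 of the 4, against 99 of 1995 TAM_C1q cells (4.96%).

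Profiles of whole populations placed the NTT cells beside TAM_cycling and the RTT cells beside TAM_C1q. Across 8851 genes, Pearson's r of log2(CPM + 1) with NTT TAM_H2Ab1 was 0.935 for TAM_cycling, 0.913 for Monocyte_1, 0.857 for Macro and 0.795 for TAM_Spp1. These populations share a library and its free RNA, and genes are not replicates. Of the 15 nearest neighbours of each NTT TAM_H2Ab1 cell, 85.2% carried the same name, which covers 5.68% of the library, 7.65% were Monocyte_1 and 5.40% TAM_cycling. Of the neighbours of the RTT cells, 23.3% carried the same name, which covers 0.744% of that library. Another 44.4% were TAM_C1q, near the 41.3% of the library that it covers. Monocyte_1 made up 14.4% of the neighbours against 2.05% of the library, and Infl_Mono 10.4% against 1.94%. In RTT, r was 0.917 for TAM_C1q and 0.895 for TAM_Spp1 across 9714 genes. The share of neighbours with the same name was lower in RTT than in NTT, but the name was also rarer in RTT. These shares therefore do not rank how far the 2 groups were set apart.

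Between the libraries, class II and C1q levels of the annotated cells differed little, while 4 of its 5 markers stood lower in RTT and several genes of the RTT macrophages stood higher. Of 3724 genes compared, 55 were 2-fold higher in RTT (1.48%) and 334 were 2-fold lower (8.97%), with a median log2 ratio of -0.12. The class II list had 0 of 11 genes past 2-fold and a median of 0.02. H2-Ab1 had a log2 ratio of 0.02 (-0.04 to 0.07). With membership set by nearest neighbours, which left 3 RTT cells, it was 0.94, and 163 genes were higher and 788 lower. C1qa stood at 10393 CPM in RTT against 9879 CPM. The study's own list had 0 of 20 genes past 2-fold: Cd72 stood at 1948 CPM against 2181 CPM, and Fcgr4 at 2012 CPM against 2618 CPM.

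The 4 sharper markers were all lower in RTT. Vcam1 stood at 47.2 CPM in RTT (17 UMIs) against 294 CPM, a log2 ratio of -2.64 (-3.43 to -1.95). Fcrl5 stood at 36.1 CPM, a ratio of -2.31 (-3.23 to -1.52), and Dnase1l3 at 61.1 CPM, also a ratio of -2.31 (-2.99 to -1.70). Cd300e stood at 72.2 CPM, a ratio of -1.82 (-2.45 to -1.25). Mmp13 stood at 27.8 CPM, a ratio of -3.68. Pecam1, an adhesion molecule of endothelium and patrolling monocytes, had 0 UMIs in RTT and 89.8 CPM in NTT, at least 10.8-fold lower. The adhesion list had 5 of 9 genes 2-fold lower and 0 higher, where 8.97% of all genes were lower. The 5 lowest ratios (Tmem26, Il1r2, Fpr1, Htra1 and S100a9) each rested on 1 RTT UMI: for Tmem26 the log2 ratio was -5.38 (-10.68 to -2.88).

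The 5 highest ratios were those of Spp1, AA467197, Arg1, Fn1 and Fcrls. Spp1, the secreted glycoprotein osteopontin, stood at 938 CPM in RTT against 41.7 CPM, a log2 ratio of 4.49 (4.15 to 4.84). Arg1, which breaks down arginine, stood at 183 CPM against 16.8 CPM, with 87.9% of its RTT UMIs in 5 cells. Fcrls, an Fc receptor-like scavenger gene, stood at 1107 CPM against 114 CPM. Ccr2 was 2.97 higher, Trem2, a lipid-sensing receptor, 2.68 higher and Lyz2 2.05 higher. Cxcl9 stood at 3696 CPM against 581 CPM. In RTT 5 of the 36 cells held 76.1% of its UMIs, and in NTT 5 of the 169 cells held 52.5%. Its share of cells with a UMI at 2000 UMIs was 47.1% in RTT and 23.7% in NTT, with NK_cells at 2.44% in RTT and 1.22% in NTT. Without thinning the shares were 55.6% in RTT and 43.8% in NTT, with 1 of 51 NK_cells in RTT and 11 of 178 in NTT, at median depths of 3967 and 5358.5 UMIs.

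Some of the same shifts were measured in another population of these libraries. In Monocyte_1, the RTT over NTT log2 ratio was 2.21 for Spp1, 3.55 for Fcrls, 1.89 for Lyz2, -2.77 for Pecam1 and -3.20 for Dnase1l3. For Ccr2 it was 0.05 and for Cxcl9 0.67, below the 2.97 and 2.67 of TAM_H2Ab1. The free RNA of each library and the small number of RTT cells move with these ratios, and their part in them was not tested.

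**Figure D4:**
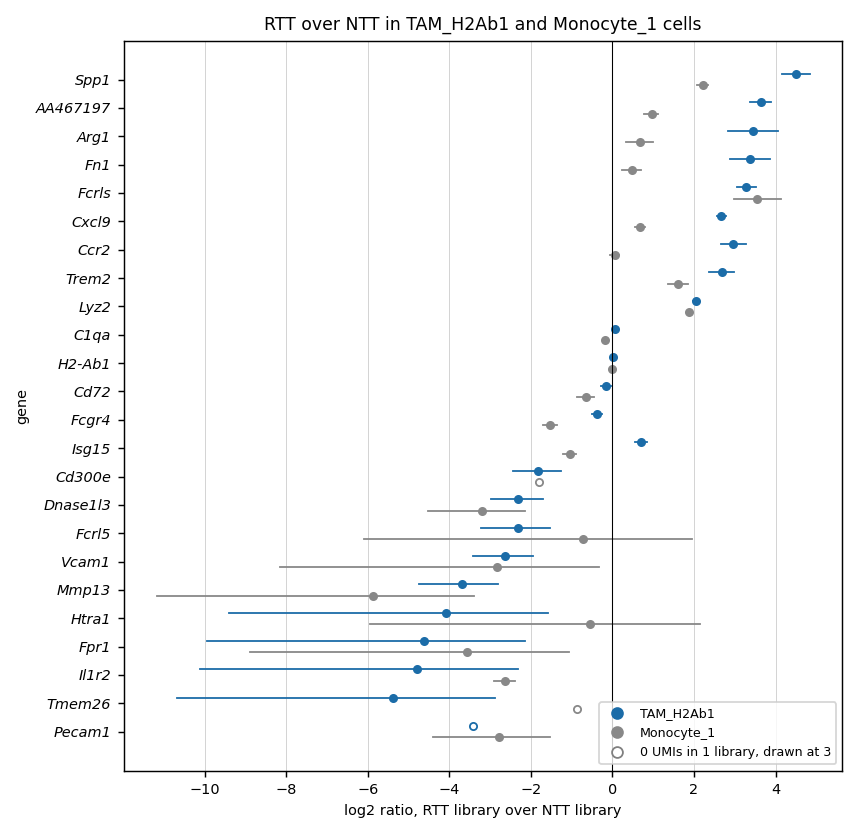
RTT over NTT log2 ratios (horizontal axis) of named genes in TAM_H2Ab1 (blue) and Monocyte_1 (grey), with 95% counting intervals and open circles where the RTT population held 0 UMIs, drawn with the 0 set to 3 UMIs. H2-Ab1 and C1qa lie near 0 in both populations, Spp1 and Fcrls lie above 2 in both, and Ccr2 lies at 2.97 in TAM_H2Ab1 and 0.05 in Monocyte_1.

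Within RTT, the 36 cells stood above TAM_C1q, the population with the highest r, in class II and interferon genes. H2-Ab1 was 2.80 higher on the log2 scale than in TAM_C1q, and its ratio to TAM_Spp1 was -0.12. Cxcl9 was 6.50 higher than in TAM_C1q, Isg15 4.17 higher and Iigp1 4.44 higher. Few cells carried some of these values: 1 of the 36 cells held 53.4% of the Iigp1 UMIs, and 5 cells held 76.1% of the Cxcl9 UMIs. Dnase1l3 was 5.87 higher, and Fcrl5 and Cd300e were each 4.66 higher, with 27.3%, 38.5% and 19.2% of their UMIs in 1 cell. Vcam1 stood at 47.2 CPM against 33.9 CPM, with an interval of the log2 ratio that held 0. C1qa stood at 10393 CPM against 10216 CPM. Cbr2 and F13a1, resident-like genes, had log2 ratios of -4.63 (-6.26 to -3.41) and -5.64 (-7.91 to -4.09), on 5 and 3 UMIs. The name therefore held in RTT for H2-Ab1 relative to TAM_C1q, but not relative to TAM_Spp1 or to Macro, which stood at 10398 CPM.

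**Figure D5:**
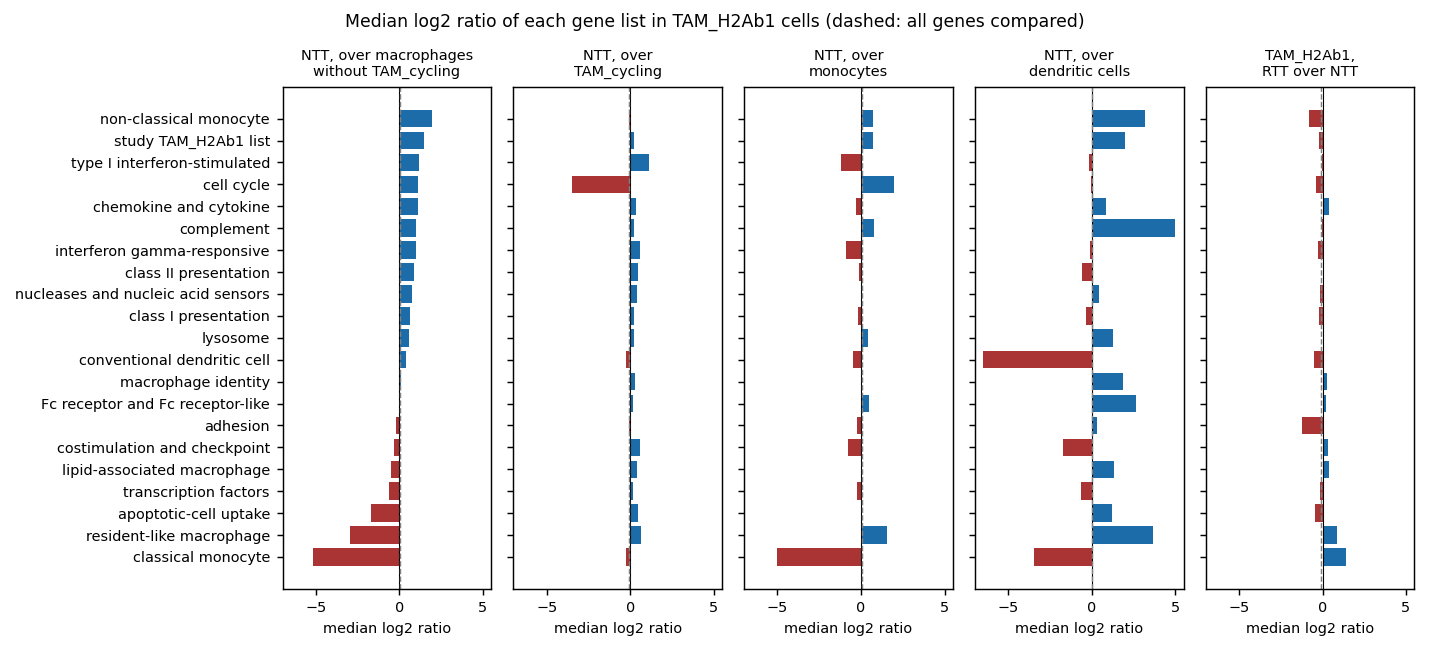
Median log2 ratio of each gene list in TAM_H2Ab1 (horizontal axis, blue above 0 and red below 0; dashed line, median of all genes compared) against 4 NTT references and between the libraries. The classical monocyte list lies at -5.20 against the macrophages without TAM_cycling and at -0.28 against TAM_cycling, and the cell cycle list reaches -3.51 against TAM_cycling.

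Markers of other cell types differed in level in these cells. In NTT, the 5 T cell markers summed to 7.26 CPM, the 5 NK cell markers to 5.90 CPM and the 5 fibroblast markers to 9.98 CPM, with Col1a1 and Col1a2 at 0. In RTT these sums were 2.78, 8.33 and 2.78 CPM. The 5 neutrophil markers summed to 155 CPM in NTT and 63.8 CPM in RTT, against 189 CPM in NTT Monocyte_1. The 5 plasmacytoid dendritic cell markers summed to 143 CPM in NTT and 77.7 CPM in RTT, against 121 CPM in NTT Monocyte_1. Nearly all of the NTT sum came from Tcf4, a transcription factor of that lineage, with 310 UMIs in 117 cells. Of the endothelial cell markers, Vwf had 52 UMIs in 32 of the 169 NTT cells and 22 UMIs in 15 of the 36 RTT cells. Kdr had 30 UMIs in NTT and 1 in RTT, and Cdh5 had 4 UMIs in NTT. The part of all these markers of other cell types in the results was not tested. Of the 6 conventional dendritic cell markers, Flt3 and Clec9a were at 0 in both libraries. In NTT, Xcr1 had 61 UMIs in 30 of the 169 cells, Ccr7 had 4 UMIs, and Zbtb46 and Cd209a had 1 UMI each. The 7 macrophage markers were all present, summing to 34810 CPM in NTT and 43540 CPM in RTT. The B cell markers summed to 74.4 CPM in NTT, nearly all from Cd79b, with Cd79a at 0, and to 93.8 CPM in TAM_cycling and 15.7 CPM in Monocyte_1. Leaving out the 5% of cells with the highest doublet scores in each library, 5 of them in NTT TAM_H2Ab1 and 1 in RTT, kept every count of 2-fold genes within 1.5 times its value.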

How the data were processed

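Live CD45+ cells of 1 NTT and 1 RTT tumour were sequenced as single-cell 3′ libraries. The deposited counts are UMIs per gene and cell, made by the authors with Cell Ranger 6.1.1 on mm10 (submitters' processing notes) and filtered by them on genes per cell and on mitochondrial and ribosomal content. The deposited cells had at least 862 genes and 1209 UMIs, over 12584 genes. List genes outside this matrix were not analysed here. Population names are the authors' own, from a map shared with other experiments.

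Counts were summed per population and library and divided by their total (CPM). Ratios carry exact binomial intervals, levels exact Poisson intervals and shares exact Clopper-Pearson intervals (scipy 1.17.1), all at 95% and for counting error only. A gene was compared with at least 100 UMIs in both sides together and called at 2-fold. With 1 library per group, no p-value was computed. Neighbours were found in 30 components of 3000 variable genes (scanpy 1.11.5, scikit-learn 1.9.0). Scrublet marked 3 of 2975 NTT cells and 5 of 4840 RTT cells as doublets, too few for a working caller, so no cell was removed and the top 5% of scores were left out as an alternative. Alternative scalings used edgeR 4.0.16 (TMM) and DESeq2 1.42.0 (size factors). The ratio code was checked on simulated data.

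Named genes were the 5 markers, list members, the 10 highest and 10 lowest ratios to other macrophages, the 5 highest and 5 lowest to monocytes, to dendritic cells and between libraries, and the 10 genes most above the next NTT population. Genes with over 25% of the higher side's UMIs in 1 cell were left out of these ranks. The population, lists and rules were chosen with earlier results of these data known. The references without TAM_cycling, TAM_cycling alone and Monocyte_1 alone, and the top doublet scores, were alternatives added after seeing the data.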

Additional observations from a re-analysis of the deposited data

Results flagged for a closer look

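Slfn4, an interferon-inducible gene of the Schlafen family, pointed in opposite directions in the 2 libraries when TAM_H2Ab1 was set against the other macrophages of the same library. In NTT its log2 ratio was -1.99 (-2.69 to -1.36), from 10.4 CPM in TAM_H2Ab1 and 41.5 CPM in the others. In RTT its log2 ratio was 3.20 (1.95 to 4.24), from 22.2 CPM against 2.41 CPM, and it rested on 8 UMIs. The difference between the libraries was not tested, since each group holds 1 library.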

How the results depend on the processing

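No paired analysis was possible because each group holds 1 library and no result comes from a test. Each ratio rests on 1 tumour, and the RTT values on 36 cells. Of 881 recomputed list medians, 700 stayed between the medians of their genes' lower and upper counting limits, and 180 moved beyond them. That span is not an interval of the list median itself. The remaining 1, past 2-fold, turned: the cell cycle list against other macrophages went from -2.61 to 1.14 without TAM_cycling, where 3 of its genes had enough UMIs. With TMM and DESeq2 scaling, the median of all genes moved by -0.17 and -0.16 against monocytes, by -0.12 and -0.12 against Monocyte_1 and by 0.12 and 0.14 between libraries, and counts against monocytes became 361 higher and 863 lower, and 364 and 858. Against other macrophages, the mean of per-cell CPM gave 279 genes higher and 699 lower, equal weight per population gave 186 and 564, and omission of TAM_cycling gave 395 and 652. Thinning to 2000 UMIs left fewer genes to compare, with 108 higher and 258 lower against other macrophages, 262 and 588 against monocytes, 203 and 338 against dendritic cells and 18 and 33 between libraries. A minimum of 20 UMIs admitted more genes, giving 199 higher and 1083 lower, then 1007 higher against monocytes, 1173 and 1271 against dendritic cells and 221 and 1175 between libraries. With a minimum of 1 UMI these were 360 and 1434, 1267 and 1111, 1497 and 1670, and 459 and 1329. Membership by nearest neighbours kept 3 RTT cells (0.0620% of the library) and gave 163 higher and 788 lower between libraries, with a log2 ratio of 0.94 for H2-Ab1. With at least 1500 genes per cell the NTT share was 7.13%. Cells with a UMI at 1000 UMIs and without thinning were 88.2% and 98.8% for H2-Ab1, 15.4% and 57.4% for Fcrl5, 20.1% and 75.1% for Dnase1l3, 18.3% and 59.8% for Vcam1 and 20.1% and 72.2% for Cd300e in NTT, and without thinning 22.2% for Dnase1l3 and 30.6% for Cd300e in RTT. With log2(CPM + 10), r was 0.952 for TAM_cycling in NTT and 0.945 for TAM_C1q in RTT, and among 50 neighbours 78.7% carried the name in NTT.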

Other observations

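Lysosomal genes and nuclease genes were further groups measured in TAM_H2Ab1. Of the 22 lysosome genes, 14 were 2-fold higher and 0 lower than in the NTT dendritic cells, where 10.6% of all genes were higher, with a median log2 ratio of 1.29. Against the macrophages without TAM_cycling, where 7.58% of all genes were higher, 4 were higher and 0 lower, with a median of 0.56. Against all other macrophages 0 of the 22 passed 2-fold. Grn, the lysosomal protein progranulin, stood at 1802 CPM in TAM_H2Ab1 against 456 CPM in the dendritic cells. Of the nucleases and nucleic acid sensors, 5 of 11 were 2-fold higher and 0 lower than in the macrophages without TAM_cycling, with a median of 0.77. Against all other macrophages 2 of 13 were higher, where 1.45% of all genes were higher.

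Genes for the uptake of apoptotic cells stood lower on balance than in the other NTT macrophages pooled, but not than in TAM_cycling alone. Without TAM_cycling in the reference, 5 of 9 were 2-fold lower, where 12.5% of all genes were lower, and 1 was higher, with a median of -1.70. Against all other macrophages, 4 of 10 were lower and 1 higher, where 8.54% of all genes were lower. The gene that was higher was Axl, a receptor for phosphatidylserine bridged by Gas6, at 190 CPM against 30.1 CPM. Mertk, a related receptor, stood at 22.2 CPM in both libraries. Set against TAM_cycling alone, the uptake list had a median log2 ratio of 0.47, with 1 of 8 genes 2-fold higher and 0 lower. Against the monocytes its median was 0.03, with 2 of 10 genes higher and 2 lower.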
